A study of Homo sapiens with 32 samples.

Results

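A group of 10 protein-coding genes, 6 at the tip of the short arm of chromosome 8 (8p23.3) and 4 on the long arm of chromosome 3 (3q25-q26), were followed through 32 RNA libraries of human U2OS and HEK293T cells. They are 10 of the 60107 gene rows in the count table. FBXO25, TDRP, ERICH1, CLN8, ARHGEF10 and KBTBD11 lie in this order from the 8p telomere, and SHOX2, IFT80, TRIM59 and KPNA4 lie in this order towards the 3q telomere. They were chosen because their counts were low or absent in libraries 2, 4, 6 and 8 of the series when set beside the other libraries, to find where each low stretch begins and ends. Their levels in that contrast are therefore given as a description, without a test. A test was run only between libraries that played no part on the low side of the choice.

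The study asked how loss of the kinase ATM and treatment with camptothecin (CPT), a poison of topoisomerase I, affect protein aggregation, and sequenced RNA of the same cells. U2OS is an osteosarcoma line and HEK293T an embryonic kidney line, both of highly rearranged karyotype. By the labels, 4 libraries each are HEK293T treated with CPT (libraries 2, 4, 6 and 8), HEK293T ATM KO (18 to 21), U2OS ATM KO (10, 12, 14 and 16), wild-type U2OS (1, 11, 13 and 15), U2OS treated with CPT (26 to 29) and U2OS treated with the vehicle DMSO (30 to 33), and 8 are HEK293T with DMSO (3, 5, 7, 17 and 22 to 25). HEK293T cells received CPT or DMSO for 24 hours and recovered for 48 hours, and untreated U2OS cells grew for 72 hours. The same times stand on the labels of libraries 18 to 21, which name no agent for that group. The dose of CPT is not in the labels, nor is the length of its use in U2OS. For HEK293T the study's RNA comparison names an ATM inhibitor, whereas the labels of libraries 18 to 21 name a knockout. Its ATM knockouts were made with CRISPR/Cas9 and picked as individual clones, so that a clone may carry changes of its own beside the edit. Which libraries hold such a clone was not settled here. All repeats are stated to be independent replicates.

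The cell line written on the label did not match the expression of marker genes in 14 of the 32 libraries. The sum of 8 mesenchymal markers of U2OS, among them CD44, CAV1 and CLU, was 3959 to 5011 CPM (counts scaled to the library total) in libraries 2, 4, 6 and 8, 3725 to 5727 in libraries 1, 3, 5 and 7, and 2402 to 5781 in libraries 26 to 33, against 60.8 to 270 in libraries 10 to 25. The list for HEK293T was a weak one, since 4 of its 8 genes were higher in U2OS than in HEK293T cells, and its sums were 368 to 785 CPM in the first 3 sets and 701 to 1477 in libraries 10 to 25. ATM itself had 35.4 to 66.8 CPM in libraries 2, 4, 6 and 8 and 59.3 to 78.2 in 1, 3, 5 and 7, and a count of transcript ends need not show an edit further upstream. The libraries are therefore named by their numbers. Libraries 2, 4, 6 and 8 were set beside libraries 1, 3, 5 and 7 and libraries 26 to 33, which share the U2OS profile, and beside libraries 10 to 25, which do not. No direction for a treatment or genotype was drawn from libraries 1 to 17.

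QuantSeq primes on the poly(A) tail and yields about 1 fragment per transcript close to its end, so that a count follows the number of transcripts and not their length. Neighbouring genes on a chromosome arm can be controlled separately or together, and a missing stretch of DNA takes along all genes that lie within it. A count of RNA cannot by itself tell a missing gene from a silent one, and in bulk RNA fewer expressing cells and less RNA per cell cannot be told apart. The library totals on genes ran from 1232674 to 6362433. The floor of 3 counts corresponds to 0.472 to 2.43 CPM in a single library and to 0.219 CPM over libraries 2, 4, 6 and 8 together.

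In libraries 2, 4, 6 and 8, all 10 genes had a lower mean than in libraries 1, 3, 5 and 7, but to very different degrees. FBXO25, TDRP, ERICH1, CLN8, ARHGEF10, SHOX2 and TRIM59 were nearly or wholly without counts. KBTBD11 and IFT80 were lower but present, at 36.9% and 58.6% of that mean, and KPNA4 was well expressed. Against libraries 26 to 33 IFT80 was the lower of the 2, at 41.6% and below every library, and KBTBD11 overlapped, at 80.0%. The overlap of KBTBD11 was with the CPT libraries 26 to 29 and not with the DMSO libraries 30 to 33. In 8 of the 10 genes every one of libraries 2, 4, 6 and 8 was below every one of 1, 3, 5 and 7, a pattern that 7.46% of all genes with counts showed. In 7 of these 8 the mean was also at least 4-fold lower, against 1.01% of all genes. In addition, 6 of the 10 genes had 3 or fewer counts over the 4 libraries (ERICH1 had 4), against 0.207% of genes at 2 CPM or more in libraries 1, 3, 5 and 7. The genes were chosen on this contrast, so nothing is read from these shares. Against libraries 26 to 33 and against libraries 10 to 25 the same 7 genes were at least 4-fold lower and did not overlap, where the share over all genes was 1.16% and 5.88%. The plot of all libraries shows 7 panels in which libraries 2, 4, 6 and 8 lie on the zero line.

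**Figure D1:**
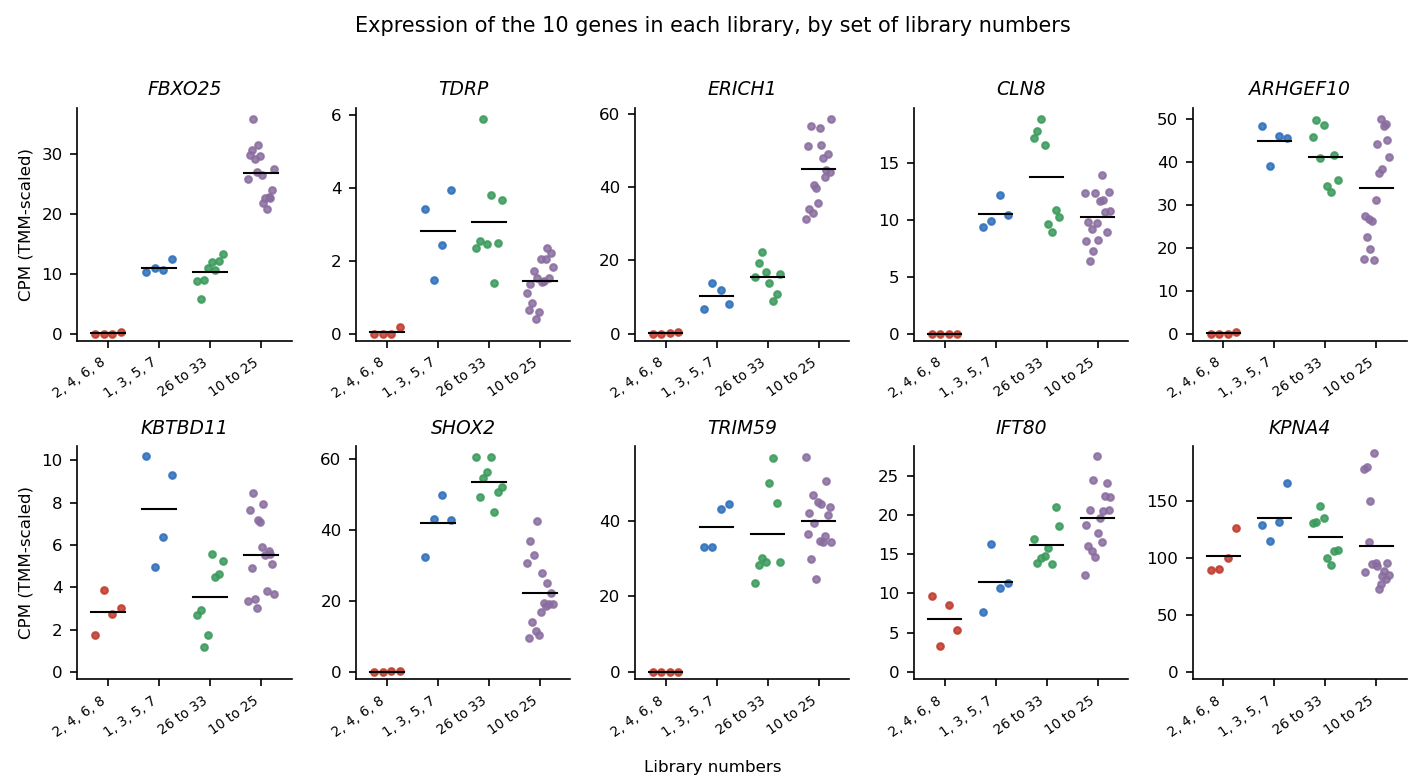
Expression of the 10 genes in CPM (TMM-scaled) on the y axis, 1 point per library, in the 4 sets of library numbers on the x axis, with the mean of each set as a bar. In FBXO25, TDRP, ERICH1, CLN8, ARHGEF10, SHOX2 and TRIM59 the points of libraries 2, 4, 6 and 8 lie at 0 to 0.534 CPM, below every other library, while in KBTBD11 and KPNA4 they overlap with libraries 26 to 33.

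FBXO25 encodes the substrate-binding subunit of an SCF-type ubiquitin ligase and is the first expressed gene from the 8p telomere (chr8:406428-477967, plus strand, GRCh38). It had 0, 0, 0 and 2 counts in libraries 2, 4, 6 and 8, and 12, 22, 35 and 44 counts in libraries 1, 3, 5 and 7. In CPM the latter were 10.2, 10.9, 10.6 and 12.4, and libraries 26 to 33 ranged from 5.82 to 13.4 with a median of 10.8. All 28 other libraries lay above the 0.356 CPM of library 8. Pooled over libraries and scaled to depth, FBXO25 was 77.2-fold lower than in libraries 1, 3, 5 and 7, with a 95% exact counting interval of 20.9 to 645.

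TDRP, a nuclear protein known from the testis, is the neighbour on the minus strand (chr8:489792-545781) and was the scarcest of the 10 genes. A single count was found over libraries 2, 4, 6 and 8, in library 8, against 4, 3, 8 and 14 in libraries 1, 3, 5 and 7. Its mean there was 2.82 CPM ± 1.09 (SD, n = 4), and the lowest of the other 28 libraries had 0.403 CPM. The pooled ratio was 39.6-fold, with a counting interval of 6.57 to 1618, so that its size is poorly fixed at this depth.

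ERICH1, a glutamate-rich protein whose function is little known, follows at chr8:614746-738106 on the minus strand. It had 0, 0, 1 and 3 counts in libraries 2, 4, 6 and 8 and 8, 28, 39 and 29 in libraries 1, 3, 5 and 7, where its mean was 10.2 CPM ± 3.25 (SD, n = 4). Libraries 26 to 33 held 8.96 to 22.4 CPM, and libraries 10 to 25 held 31.2 to 58.7 CPM, above all U2OS-profile libraries.

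CLN8, a protein of the endoplasmic reticulum that carries lysosomal enzymes towards the Golgi and is mutated in a form of neuronal ceroid lipofuscinosis, lies at chr8:1755778-1801711. Not a single count fell on it in libraries 2, 4, 6 and 8. Libraries 1, 3, 5 and 7 held 11, 20, 40 and 37 counts, or 9.37, 9.90, 12.2 and 10.4 CPM. Against the floor of 3 counts over the group, CLN8 was at least 47.8-fold lower, and at least 28.2-fold without library 8. AC100810.1, an antisense transcript inside CLN8, also had 0 counts there against 36 in libraries 1, 3, 5 and 7. Reads of these overlapping genes may not be fully told apart, as the strand setting of the counting is not given in the sources used here.

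ARHGEF10, a guanine nucleotide exchange factor tied to myelination, lies at chr8:1823976-1958641 and had the highest mean of the 6 8p genes in libraries 1, 3, 5 and 7 and in 26 to 33, but not in libraries 10 to 25, where ERICH1 was higher. Libraries 1, 3, 5 and 7 held 57, 79, 152 and 162 counts, or 48.6, 39.1, 46.2 and 45.6 CPM. Libraries 2, 4 and 6 held none and library 8 held 2. The pooled ratio was 307-fold, with a counting interval of 84.6 to 2546, and the next lowest library of all had 17.1 CPM.

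KBTBD11, a Kelch- and BTB-domain protein thought to serve as an adaptor of Cullin 3 ubiquitin ligases, is the next gene after ARHGEF10 in the same direction (chr8:1973878-2006936) and marks the end of the low stretch. It had 2, 7, 14 and 17 counts in libraries 2, 4, 6 and 8. These correspond to 1.76, 3.89, 2.71 and 3.03 CPM, against 10.2, 4.95, 6.38 and 9.30 in libraries 1, 3, 5 and 7. The mean was 36.9% of that in libraries 1, 3, 5 and 7, and the sets did not overlap. Against libraries 26 to 33, with 1.18 to 5.56 CPM, they overlapped and the log2 ratio was only -0.32. KBTBD11 therefore differs from the 5 genes on its telomeric side in that transcripts were found in all of libraries 2, 4, 6 and 8.

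Taken in map order, the low genes of 8p form 1 unbroken stretch. A gene counted as expressed when its mean was at least 2 CPM in libraries 1, 3, 5 and 7, and a run was 3 or more such genes in a row with a mean at least 4-fold lower in libraries 2, 4, 6 and 8. FBXO25, TDRP, ERICH1, CLN8, AC100810.1 and ARHGEF10 formed the only such run at these settings, 6 genes over chr8:406428-1958641. At a minimum of 1 CPM there were 3 runs, and at a 2-fold limit 8. All but AC100810.1, which lies inside CLN8, were chosen on this contrast, so nothing is read from there being no other run. On the telomeric side 15 genes are annotated, 2 of them protein-coding, and none was expressed, so the RNA sets no limit there. On the other side the run ended at KBTBD11. Of the next 6 expressed genes, MYOM2, AC246817.2, CSMD1, AC016065.1, MCPH1 and AGPAT5, all were lower and none was 4-fold lower.

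These 6 genes had a median log2 ratio of -1.12 over libraries 1, 3, 5 and 7 and of -0.63 over libraries 26 to 33. AGPAT5, an acyltransferase of phospholipid synthesis, had a mean of 49.0 CPM in libraries 2, 4, 6 and 8 and of 106.7 in 1, 3, 5 and 7. MCPH1, which acts in the DNA damage response and chromosome condensation, had 5.65 and 15.9 CPM, and CSMD1, a large membrane protein, had 8.38 and 18.1 CPM. In these 3 genes the sets did not overlap, whereas MYOM2, AC246817.2 and AC016065.1 overlapped. By comparison 49.2% of all 13030 expressed genes were lower, 0.982% were at least 4-fold lower, and the median log2 ratio over all was 0.01.

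**Figure D2:**
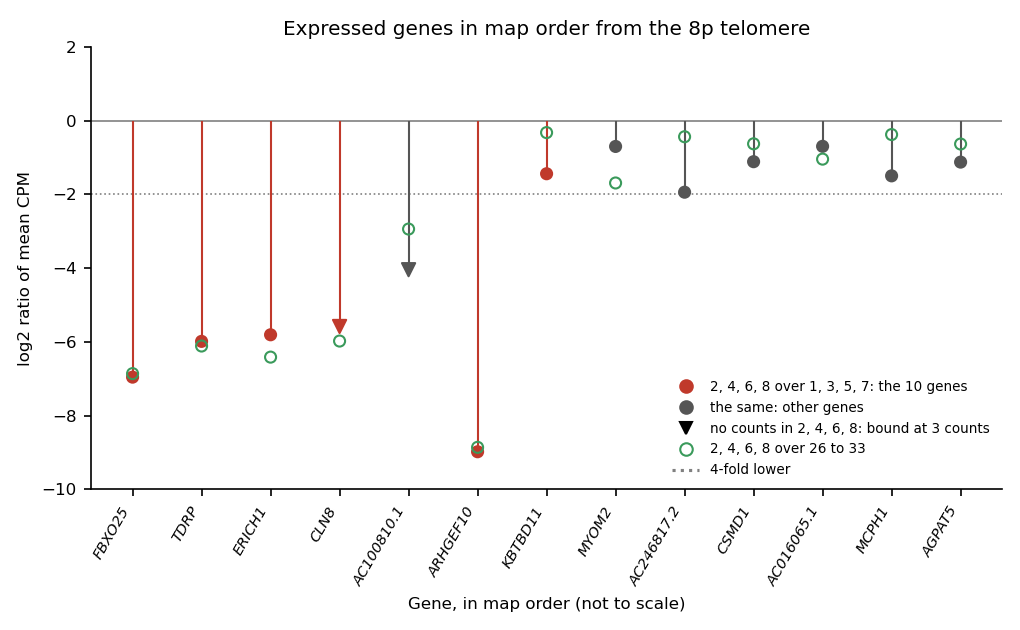
Log2 ratio of mean CPM, libraries 2, 4, 6 and 8 over 1, 3, 5 and 7 (filled) or over 26 to 33 (open), on the y axis, for the expressed genes of distal 8p in map order on the x axis. A gene without counts in libraries 2, 4, 6 and 8 is drawn at its bound of 3 counts over the group (triangle, and the open circle of the same gene). FBXO25 to ARHGEF10 lie far below the dotted line of 4-fold, and KBTBD11 and the 6 genes beyond it lie between 0 and that line.

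SHOX2 is a homeobox transcription factor of limb, heart and nerve development (chr3:158095954-158106503, minus strand). It had 0, 0, 1 and 1 counts in libraries 2, 4, 6 and 8, and 38, 87, 164 and 152 counts in libraries 1, 3, 5 and 7. In CPM the latter were 32.4, 43.1, 49.8 and 42.8, and libraries 26 to 33 held 45.1 to 60.7. The pooled ratio was 301-fold, with a counting interval of 82.9 to 2496. RSRC1, a splicing-related gene on the opposite strand whose start overlaps that of SHOX2, had 53.6 and 86.2 CPM in the mean of the same sets, and these overlapped.

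TRIM59, a RING-domain ubiquitin ligase anchored in membranes, lies further towards the telomere (chr3:160432445-160485773, minus strand). No count fell on it in any of libraries 2, 4, 6 and 8, against 39, 67, 142 and 158 in libraries 1, 3, 5 and 7. Those are 33.2, 33.2, 43.2 and 44.5 CPM, and TRIM59 was at least 176-fold lower, and at least 104-fold without library 8. The other 28 libraries ran from 23.6 to 57.1 CPM, so that the gene was expressed in every library but these 4. Its promoter is shown because the expressed genes next to it, SMC4 and KPNA4, were expressed in each of libraries 2, 4, 6 and 8. The RefSeq table (GRCh38.p14) held 3 of the 10 genes (SHOX2, IFT80 and TRIM59). Its TRIM59 start lies inside the GENCODE span given above, in which 1 transcript begins further upstream, so the start differs from the end of that span. The stretch before the RefSeq start that lies in no annotated exon is chr3:160449830-160450036, 207 bases on the minus strand, with each CG in capitals:
TRIM59: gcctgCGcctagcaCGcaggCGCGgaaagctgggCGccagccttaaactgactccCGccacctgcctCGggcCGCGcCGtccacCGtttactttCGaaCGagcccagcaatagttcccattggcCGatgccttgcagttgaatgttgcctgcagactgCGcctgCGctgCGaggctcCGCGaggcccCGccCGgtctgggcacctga
It holds CG, the letters searched, which read the same on both strands, 21 times. Over the same bases of 35116 promoters the median was 8, 91.8% held at least 1 and 19.4% held at least 21. No methylation was measured in these data. In the 250 bases before its start SHOX2 held 6 CG, where 61.9% of promoters held as many or more.

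IFT80, a subunit of the intraflagellar transport B (IFT-B) complex that builds cilia, lies on the centromeric side of TRIM59 (chr3:160256986-160399880), with SMC4 between them. It had 11, 6, 44 and 30 counts in libraries 2, 4, 6 and 8, or 9.67, 3.34, 8.53 and 5.34 CPM, and 7.67, 16.3, 10.6 and 11.3 CPM in libraries 1, 3, 5 and 7. The sets overlapped, at a log2 ratio of -0.77. Libraries 26 to 33, with 13.8 to 21.04 CPM, all lay above them, at a log2 ratio of -1.27. A read-through locus, AC079594.2, spans TRIM59 and IFT80, so counts of IFT80 may be split with it.

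KPNA4, the nuclear import receptor importin alpha 3, is the next expressed gene on the telomeric side of TRIM59 (chr3:160494995-160565588). It held 102, 162, 518 and 709 counts in libraries 2, 4, 6 and 8, or 89.7, 90.1, 100.4 and 126.3 CPM, against 129.5, 115.4, 131.6 and 166.2 CPM in libraries 1, 3, 5 and 7. The sets overlapped, at a log2 ratio of -0.42, and overlapped with libraries 26 to 33 as well, at -0.23. Of the 10 genes KPNA4 stood closest to the level of the other libraries.

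The low genes of 3q were not next to each other, and no run of 3 was found there. Between SHOX2 and KPNA4 the annotation holds 43 genes, and 12 were expressed. Of the 8 that are not among the 10 genes, none was 4-fold lower, 7 were lower and 3 did not overlap, where 49.2% of all expressed genes were lower and 7.46% of all genes lay below without overlap. These 3 were GFM1, a mitochondrial elongation factor, with 35.6 against 62.2 CPM, MFSD1, a lysosomal transporter, with 35.4 against 58.8 CPM, and SMC4, the condensin subunit next to IFT80, with 681 against 1005 CPM. RSRC1, MLF1, AC080013.1 and C3orf80 overlapped at log2 ratios of -0.68, -0.49, -0.19 and -0.69, and SCHIP1 was higher, at 0.39. The median of the 8 was -0.62 over libraries 1, 3, 5 and 7 and -0.74 over libraries 26 to 33. SHOX2, with 2 counts, and TRIM59, with 0, each lay between genes that were expressed.

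In the nearest expressed genes outside SHOX2 and KPNA4 the levels lay closer to those of the other libraries. This did not hold for all of distal 3q, as the bins given below show. The 9 expressed genes before SHOX2 had a median log2 ratio of -0.17, and in none did the sets separate. The 6 after KPNA4 had a median of -0.28. Among these was SLITRK3, a synaptic membrane protein, which had 1 count in libraries 2, 4, 6 and 8 against 32 in libraries 1, 3, 5 and 7.

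**Figure D3:**
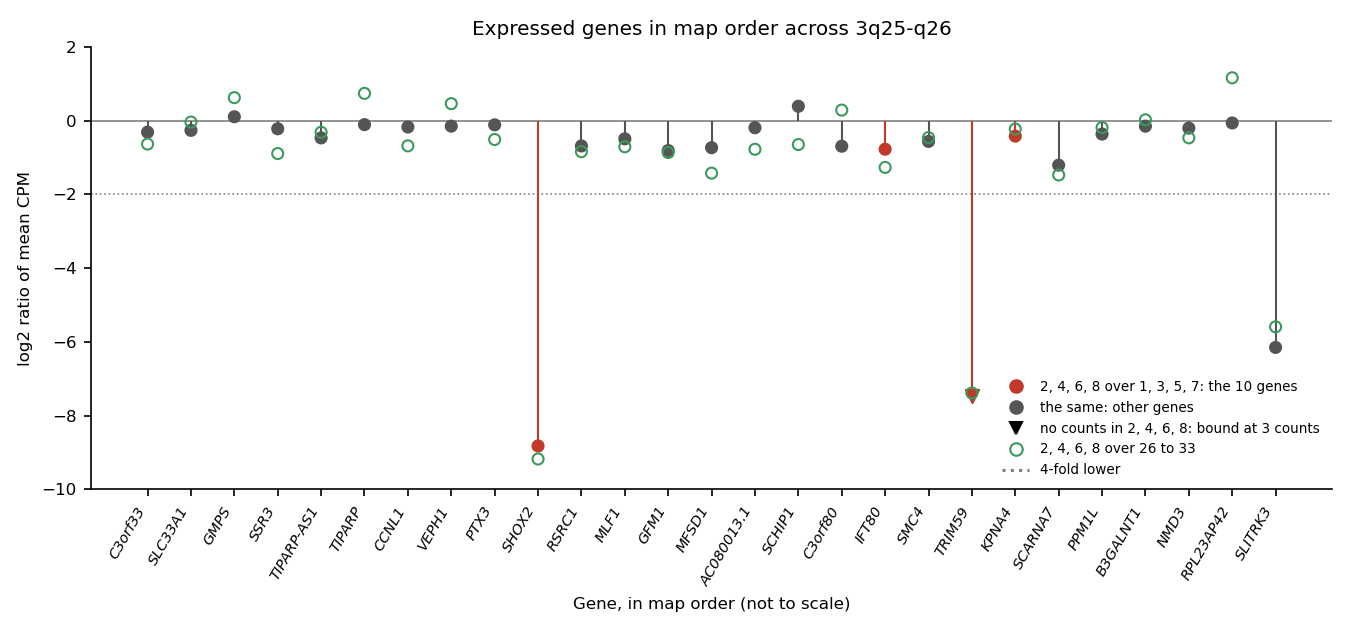
The same log2 ratio for the expressed genes of 3q25-q26 in map order, with libraries 2, 4, 6 and 8 over 1, 3, 5 and 7 (filled) or over 26 to 33 (open). SHOX2 and TRIM59, and outside the 10 genes SLITRK3, drop below -5 one by one, while the genes between them, IFT80 and KPNA4 included, stay above the dotted line of 4-fold.

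On a coarser scale, 9036 genes at 10 CPM or more were cut into 892 bins of 10 in map order, a step chosen after the values had been seen. The bin from FBXO25 to ERI1, which holds 4 of the 10 genes, had the lowest median of all, -1.31 over libraries 1, 3, 5 and 7, and ranked 7 over libraries 26 to 33 at -0.77. The next bin on 8p, which ends at DLC1, stood at -0.47, and the following at -0.22 and -0.15. The 4 bins after these, from SLC39A14 to NRG1, were above 0. On chromosome 3 the bin of IFT80, TRIM59 and KPNA4 stood at -0.53, rank 35, and the next, from PDCD10 to EIF5A2, at -0.59, rank 18. Over libraries 26 to 33 the former stood at -0.58, rank 33, and the latter at -0.84, rank 4. From the SHOX2 bin to the end of 3q, 11 of 12 bins were below 0 over libraries 1, 3, 5 and 7 and 12 of 12 over libraries 26 to 33. Over all bins 52.1% and 50.3% were below 0, and the 5th percentile over libraries 1, 3, 5 and 7 was -0.499.

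Low counts of this kind were also found in other genes. Among the 13030 genes at 2 CPM or more in libraries 1, 3, 5 and 7, 27 had 3 or fewer counts over libraries 2, 4, 6 and 8, and 6 of these are among the 10 genes. Of 10642 genes with at least 5 CPM in both libraries 1, 3, 5 and 7 and libraries 26 to 33, 7 had 3 or fewer counts over libraries 2, 4, 6 and 8. Of these 5 were among the 10 genes, ARHGEF10, FBXO25, CLN8, SHOX2 and TRIM59. The others were MAGEC1, a cancer-testis antigen of the X chromosome, with 2 counts, and FAM43A, on distal 3q, with 3. The reverse, at least 5 CPM in libraries 2, 4, 6 and 8 and at the floor in the other sets, held for 1 gene.

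The genes whose levels ran most like the mean of the near-absent genes over the 16 U2OS-profile libraries were CDH11 (Pearson r of 0.98), MAGEC1 (0.98), KCNK1 (0.98), ST6GAL1 (0.97), C5orf46 (0.97), ARFGAP3 (0.96), COL6A3 (0.96) and NRGN (0.96), out of 10910 genes. The points are 4 low and 12 high libraries, so r follows the rule itself. CDH11, a cadherin of mesenchymal cells, had 5.68 CPM in libraries 2, 4, 6 and 8 and 36.4 in 1, 3, 5 and 7, so it was lower and not absent. ST6GAL1, a sialyltransferase gene on 3q, had 0.464 and 13.6 CPM.

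CPT was compared with DMSO in the U2OS libraries 26 to 33, where all 10 genes are expressed, to see which of them differ with the treatment. KBTBD11 fell by 1.19 on the log2 scale (SE 0.34, adjusted p = 0.0068, edgeR quasi-likelihood test), from 4.98 CPM ± 0.51 (SD, n = 4) to 2.14 ± 0.81, and the 2 groups did not overlap. It was the only one of the 10 past the threshold of a 2-fold change and an adjusted p of 0.05, where 13.5% of 19080 genes were called, 7.97% up and 5.5% down. In the same comparison 5 of the 8 U2OS markers were called higher and 2 of the 7 HEK293T markers tested were called lower, SOX2 (-4.08) and MYCN (-3.19), and their part in these values was not tested.

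Another 5 genes had an adjusted p under 0.05 at less than a 2-fold difference, which makes 6 of 10 without a fold cutoff, against 31.9% of all genes. CLN8 had 17.6 CPM ± 0.98 (SD, n = 4) with CPT and 9.92 ± 0.80 with DMSO, a log2 fold change of 0.83 (edgeR adjusted p = 5.14e-04), and all 4 CPT libraries lay above all 4 DMSO libraries. ERICH1 (0.56), ARHGEF10 (0.36) and KPNA4 (0.42) pointed the same way, with edgeR adjusted p of 0.0263, 0.0357 and 0.00312. TRIM59 pointed the other way, at -0.68 (edgeR adjusted p = 0.00157), with 27.9 CPM ± 2.94 with CPT and 45.2 ± 11.8 with DMSO. The 8p neighbours thus had values on both sides of 0, with FBXO25 at -0.47 (edgeR adjusted p = 0.0892). SHOX2 had 55.3 CPM ± 4.66 and 52.2 ± 6.40, with overlap, and TDRP and IFT80 had log2 fold changes of 0.17 and -0.20.

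Between the libraries labelled HEK293T ATM KO (18 to 21) and HEK293T DMSO (22 to 25), 0 of the 10 genes were called, and 0% of all 18413 genes by the same edgeR test. At an unadjusted p under 0.05 the test gave 1017 genes, DESeq2 called 0 (519 unadjusted) and edgeR's likelihood ratio test called 2. The log2 fold changes of the 10 genes ran from -0.25 for IFT80 to 0.22 for KBTBD11, with a smallest adjusted p of 0.908. SHOX2 had 20.7 CPM ± 4.88 (SD, n = 4) and 21.4 ± 2.85, and TRIM59 had 37.4 ± 4.79 and 42.6 ± 6.74.

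Between U2OS (30 to 33) and HEK293T cells (22 to 25), both with DMSO, 2 of the 10 genes were called where 39.9% of 19739 genes were. SHOX2 was higher in U2OS by 1.30 on the log2 scale (SE 0.14, edgeR adjusted p = 5.14e-10), with 52.2 and 21.4 CPM. ERICH1 was lower by a log2 fold change of -1.95 (SE 0.16, edgeR adjusted p = 1.63e-12), with 12.5 and 49.1 CPM. FBXO25 stood just short of the cutoff at -0.99 (edgeR adjusted p = 2.48e-06), with 12.03 and 24.2 CPM, and passed it in some other fits. ARHGEF10 had a log2 fold change of -0.33 (edgeR adjusted p = 0.0263), and CLN8, KBTBD11 and TRIM59 had -0.10, 0.01 and 0.09. Both lines thus expressed all 10 genes, and for 7 of them no other library of either profile was as low as libraries 2, 4, 6 and 8.

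**Figure D4:**
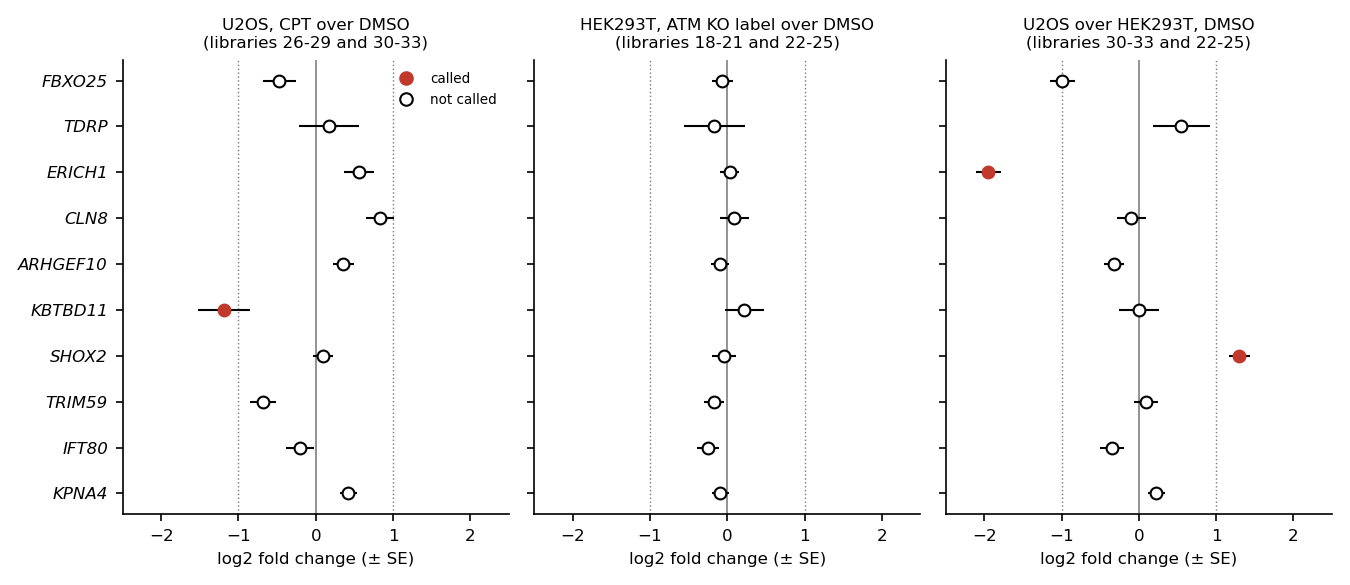
Log2 fold change on the x axis, with its standard error as a bar, of the 10 genes in the 3 tested comparisons of 4 against 4 libraries. Filled points passed the threshold (KBTBD11 at -1.19 with CPT, and ERICH1 at -1.95 and SHOX2 at 1.30 between the cell lines), and the dotted lines mark a 2-fold change.

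Within libraries 10 to 17, of HEK293T profile whatever the label, 5 of the 10 genes did not overlap between libraries 10, 12, 14 and 16, labelled U2OS ATM KO, and 11, 13, 15 and 17, labelled wild-type U2OS or HEK293T DMSO. SHOX2 had 30.6 to 42.6 CPM in the former and 9.59 to 14.04 in the latter, and KPNA4 had 150.3 to 192.7 and 87.9 to 114.0. TDRP was also higher, with 1.12 to 1.72 against 0.403 to 0.846 CPM. ARHGEF10 had 17.1 to 22.5 against 26.2 to 31.2 and IFT80 12.4 to 16.03 against 18.7 to 27.6. Over all genes 30.8% did not overlap, in either direction, and no test was run. The other 5, FBXO25, ERICH1, CLN8, KBTBD11 and TRIM59, overlapped. None of the 10 genes was near 0 in these libraries except the scarce TDRP.

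Genes of the same complexes, families or diseases were followed from fixed lists. For the calls below, the share over all genes was 13.5% with CPT in U2OS and 39.9% between the lines. In the IFT-B complex, 17 genes with IFT80, the median log2 ratio of libraries 2, 4, 6 and 8 over 1, 3, 5 and 7 was -0.12, and 3 genes were below and 2 above without overlap, against 7.46% and 7.68% of all genes. The 3 were IFT27, IFT52 and TTC30B, at 74.3%, 72.8% and 61.8%, and the 2 were HSPB11 and TTC26, at 116.7% and 167.5%. With CPT in U2OS 0 of 17 were called by edgeR, with 5 at an unadjusted p under 0.05. In U2OS against HEK293T 4 were lower, IFT27 (-1.27), IFT46 (-1.07), TTC26 (-1.43) and IFT172 (-2.47), and none higher, with a median of -0.22 beside 0.01 for all genes.

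Among the importin alpha genes KPNA2, which is abundant in dividing cells, had 191.8 CPM in libraries 2, 4, 6 and 8 against 374.2 in 1, 3, 5 and 7, without overlap. KPNA1 was higher, with 114.9 against 86.5, also without overlap. Thus 1 of the 6 with counts lay below and 1 above, where 7.46% and 7.68% of all genes did. In U2OS against HEK293T, KPNA2 was called higher (1.53) and KPNA5 lower (-1.53), of 6 tested. With CPT in U2OS 1 of 7 was called, KPNA7, which had 7 counts over the CPT libraries and 0 over DMSO. Of the 13 neuronal ceroid lipofuscinosis genes that include CLN8, the median log2 ratio in the contrast of libraries 2, 4, 6 and 8 was 0.17. TPP1, CTSF and KCTD7 were higher without overlap, at 139.2%, 161.9% and 151.9%, against 7.68% of all genes. With CPT 0 of the 13 were called by edgeR, with 8 at an unadjusted p under 0.05, and between the lines PPT1 was higher (1.14) and MFSD8 lower (-1.22).

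Close paralogs of the low genes were the last list. Of 10 paralogs with counts, among them ARHGEF10L, FBXO32, TRIM13 and the other KBTBD genes, 0 separated libraries 2, 4, 6 and 8 from 1, 3, 5 and 7. Over all genes 7.46% lay below and 7.68% above without overlap, so little is read from this count. The median log2 ratio was 0.07. ARHGEF10L, the closest relative of ARHGEF10, had 20.5 CPM ± 3.50 (SD, n = 4) and 13.6 ± 3.35, which overlapped. SHOX, the paralog of SHOX2, had 0 counts and 1 count. With CPT in U2OS, KBTBD7 (-1.60) and TRIM13 (-1.26) fell and none of the 10 was called higher by edgeR. Between the lines FBXO32 (1.93), ARHGEF17 (1.93) and KBTBD4 (1.06) were higher and KBTBD6 (-1.23) and KBTBD8 (-3.53) lower in U2OS.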

How the data were processed

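RNA of 32 libraries was sequenced with QuantSeq 3′ mRNA-Seq. The authors deposited UMI-collapsed read counts per Ensembl gene, the raw output of Lexogen's FWD UMI workflow for this kit. Aligner settings and genome build are not given in the sources used here. Symbols and positions are from GENCODE 29 (GRCh38), which held 56531 of 60107 gene IDs. The 92 spike-in rows and 5 summary rows (10.9 to 40.6% of a library) were left out, and 0 columns were unused.

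Counts were scaled to CPM by TMM over all 32 libraries. Comparisons were tested in R 4.3.3 with edgeR 4.0.16 (quasi-likelihood test, more than 1 count in at least 2 libraries, absolute log2 fold change over 1, Benjamini-Hochberg adjusted p under 0.05 over all genes), checked on simulated counts. Alternatives were DESeq2 1.42.0, the likelihood ratio test of edgeR, RLE scaling, other filters, controls and cutoffs, and each library left out. Intervals and floors cover counting error only. The genes and lists were chosen with earlier results of these data known. Named were the 10 genes, ATM, expressed neighbours, called list genes and the 8 most alike profiles; genes at 3 or fewer counts and list genes without overlap were named after their values were seen. Some list genes are not reported here.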

Additional observations from a re-analysis of the deposited data

Results flagged for a closer look

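A set of 7 values stood apart from the rest of their labelled group by the gap between the extreme library and its nearest neighbour, out of 68 combinations of gene and group tested. Chance alone would mark about 1 in 20, but this rate does not hold for counts tied at 0 or for groups of mixed profile. Of these, 3 come from library 8, which held 0.356 CPM of FBXO25 and 0.356 CPM of ARHGEF10 (2 counts each) and 0.178 CPM of TDRP (1 count), where libraries 2, 4 and 6 held 0. Any count in library 8 would be marked in such a case. Library 8 held 5818796 counts on genes, and library 6, with 0 counts of these genes, held 5761577.

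Another 2 come from library 1 within the group labelled wild-type U2OS, whose U2OS profile the other members of that group do not share. It had 48.6 CPM of ARHGEF10 against 26.2 to 27.5, and 3.41 CPM of TDRP against 0.403 to 0.846. The last are TDRP at 5.9 CPM in library 28 (U2OS CPT), where the other libraries of the group had 2.36 to 2.55, and TRIM59 at 44.5 CPM in library 19 (HEK293T ATM KO label), where the others had 34.5 to 36.1.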

How the results depend on the processing

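No paired analysis was possible because each library has a number of its own and the groups share none. The run from FBXO25 was 1 of 3 runs at an expression minimum of 1 CPM and 1 of 8 at a 2-fold limit, where it reached KBTBD11, and the only one at 5 CPM or 8-fold. Without library 8, FBXO25, TDRP and ARHGEF10 had no counts left and were at least 29.8-, 7.60- and 121-fold lower. In U2OS with CPT against DMSO, 2569 genes were called, 1652 with filterByExpr and 6093 without a fold cutoff. In the HEK293T comparison 0 genes were called, 2 by the likelihood ratio test, 2 without a filter, 1 without a fold cutoff, and 0 to 14 with a library left out, 14 of them without library 21 and 1 without library 18. In U2OS against HEK293T 7872 were called, 5090 with filterByExpr, 12259 without a fold cutoff, and 339 against all 8 libraries labelled HEK293T DMSO, 3 of which have a U2OS profile. Against those 8 SHOX2 (0.85) and ERICH1 (-1.41) were not called. FBXO25 passed the cutoff in the joint fit of libraries 18 to 33 and, at -1.01 to -1.04, without library 22, 23, 24 or 33. No value of the 10 genes reversed.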
